A study of Mus musculus with 27 samples.

Results

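The nuclear genes that encode subunits of the mitochondrial respiratory chain and of ATP synthase were followed in cultured mouse foetal liver cells. Members were the genes whose platform symbol begins with Ndufa, Ndufb, Ndufc, Ndufs or Ndufv (without the Ndufaf assembly factors), Uqcr, Atp5, Cox4, Cox5, Cox6, Cox7 or Cox8, together with Sdha, Sdhb, Sdhc, Sdhd and Cyc1. Each gene was represented by its brightest probe set, which gave 83 members among 18193 genes. Members were placed in complexes by symbol alone, which need not match where each protein sits. Complex I held 36 members, complex II held 4, complex III held 9, complex IV held 17 and complex V, the ATP synthase, held 17. Of these, 77 lay above the dimmest 40% of genes and entered the tests (34, 4, 9, 13 and 17 in the same order), within 10916 genes tested.

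The respiratory chain passes electrons from NADH (through complex I) and from succinate (through complex II) to ubiquinone, then through complex III and cytochrome c to oxygen at complex IV. Complexes I, III and IV pump protons across the inner membrane, and ATP synthase uses their return to make ATP. In the foetal liver, the site of red cell production at this stage, erythroblasts rely on mitochondria for the first and last steps of heme synthesis and clear them as they mature into red cells. Subunits encoded by mitochondrial DNA had no named probe set and were not analysed here.

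The study measured gene expression with Affymetrix whole-genome mouse arrays in untreated liver cells of embryonic day 14.5, kept for 0, 24 or 48 h in medium rich in serum. Cells lacking the pocket proteins Rb1 and p107 (DKO), cells lacking p107 (p107KO, gene Rbl1) and cells lacking Rb1 (Rb1KO) were compared with wild type (WT). Both are pocket proteins, which hold E2F factors in check and so limit cell cycle entry. The 27 arrays fall into 12 groups. At 0 h there were 2 arrays of DKO, 2 of p107KO, 5 of Rb1KO and 3 of WT. At 24 h there were 1, 2, 4 and 2, and at 48 h 1, 1, 2 and 2, in the same order of genotypes. Whether the arrays of a group represent different embryos is not stated in the labels, so p-values measure only how much these samples varied, and part of that may be technical. The sources used here do not give the allele of either gene.

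Some facts of the whole set bear on every value below. Rbl1 signal was 84.5 to 167.5 at 0 and 24 h in the 7 arrays labelled as lacking p107, against 1273 to 3502 in the other 14. Rb1 signal was 1377 to 4600 in the 12 arrays labelled as lacking Rb1 at those times, against 6144 to 10309 in the other 9, and at 48 h it overlapped between them. Earlier work on these data set 4 arrays apart, namely Rb1KO 0 h replicate 5 and replicate 1 of DKO, p107KO and Rb1KO at 24 h. The brightest probe set of those 3 arrays at 24 h reached 125649, 154046 and 143080, against at most 90606 on any other array. Eif2s3y, a Y-linked gene, gave signal on 9 arrays, among them all 4 DKO arrays and none of the 7 WT arrays. Of the foetal liver's own markers, all 9 hepatocyte genes tested fell at 24 h with a median log2 change of -6.19. Their summed signal was 149637 to 208849 over the 0 h arrays, 5890 to 26906 at 24 h and 2959 to 41068 at 48 h. The part of any of this in the results below was not tested unless a value is given.

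RefSeq promoter windows (250 bases before to 50 bases after a transcription start, assembly GRCm38.p6) were found for 67 of the 83 members, 72 windows in all. The windows were searched on both strands for letters bound by factors known to act on genes for mitochondrial proteins. The NRF1 letters, GCGCA and GCGC with any 1 base between them, occurred in 22.2% of member windows, against 4.6% of all 32851 windows and 6.38% of the 21262 windows of protein-coding genes. The GABP (NRF2) letters CCGGAAG occurred in 23.6% of member windows, against 8.86% of all windows and 11.6% of protein-coding ones. The YY1 letters AANATGGCG occurred in 12.5%, against 2.38% of all windows and 3.12% of protein-coding ones. The E2F letters TTTCCCGC or TTTGGCGC occurred in 2.78% of member windows (2 of 72), against 1.56% of all windows and 2.02% of protein-coding ones. A match describes the letters in a window and is not a binding site.

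The 120 bases shown for each of 6 members come from genes that the results turn on, and capitals mark the NRF1 and GABP letters on either strand. Sdha and Sdhd are complex II genes that fell in the first 24 h, and the other 4 fell between 24 h and 48 h. All 6 genes lie on the minus strand and are written 5′ to 3′ along the gene. The stretches are chr13:74350241-74350360 for Sdha, chr9:50603850-50603969 for Sdhd, chr6:24527602-24527721 for Ndufa5, chr2:90904722-90904841 for Ndufs3, chr10:80406822-80406941 for Uqcr11 and chr5:108434400-108434519 for Atp5k. The first, second and last 3 end at the base before the start site and that of Ndufa5 ends 75 bases further upstream.
Sdha: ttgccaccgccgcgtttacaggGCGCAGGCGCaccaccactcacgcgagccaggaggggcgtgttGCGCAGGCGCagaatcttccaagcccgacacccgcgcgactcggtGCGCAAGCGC
Sdhd: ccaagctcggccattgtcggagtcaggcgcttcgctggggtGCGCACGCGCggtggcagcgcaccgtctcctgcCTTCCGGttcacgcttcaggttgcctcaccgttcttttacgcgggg
Ndufa5: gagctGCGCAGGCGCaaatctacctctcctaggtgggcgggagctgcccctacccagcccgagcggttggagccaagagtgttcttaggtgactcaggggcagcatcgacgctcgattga
Ndufs3: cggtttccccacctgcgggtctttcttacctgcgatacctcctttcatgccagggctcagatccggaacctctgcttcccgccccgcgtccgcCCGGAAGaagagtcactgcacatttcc
Uqcr11: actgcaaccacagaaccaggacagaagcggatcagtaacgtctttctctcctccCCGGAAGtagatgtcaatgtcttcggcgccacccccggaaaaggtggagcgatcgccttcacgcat
Atp5k: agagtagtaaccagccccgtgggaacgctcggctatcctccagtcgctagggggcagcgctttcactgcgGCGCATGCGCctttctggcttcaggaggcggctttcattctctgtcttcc
The NRF1 letters stand 3 times in the Sdha stretch. The Sdhd stretch holds NRF1 and GABP letters, those of Ndufa5 and Atp5k hold NRF1 letters, and those of Ndufs3 and Uqcr11 hold GABP letters. All 6 thus hold such letters, where 22.2% of member windows hold those of NRF1 and 23.6% those of GABP. They do not stand for the members as a whole. The windows of Ndufb5, Ndufs4, Ndufc1 and Ndufs7, also named below, hold neither NRF1 nor GABP letters. Those of Ndufs4, Ndufc1 and Ndufs7 do hold the YY1 letters.

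More members passed the test for time in culture than for genotype. With the 4 genotypes weighted equally, 61 of the 77 members were lower at 48 h than at 24 h and 0 were higher, with a median log2 change of -0.51 (all changes are on the log2(signal + 32) scale, and a call is an adjusted p under 0.05 in limma). Over all genes 19.5% were lower and 23.8% higher, with a median of 0.02. In the first 24 h, 44 members rose and 6 fell with a median of 0.30, where 26.7% of all genes rose, 35.7% fell and the median was -0.07. Of the 1092 brightest genes tested, 664 rose and 165 fell in those first 24 h (median 0.35), and 185 rose and 500 fell at 48 h. The members' count at 24 h depended on the scaling. After quantile normalization, which gives every array the same distribution of signals, 23 rose and 14 fell with a median of 0.05, and the all-genes median shifted to 0.03. Without the 9 arrays with Y-linked signal, which leaves no DKO array, 36 members were lower at 48 h and 0 higher, and at 24 h 21 rose and 4 fell. In a bulk sample, fewer cells of a type and less RNA per cell cannot be told apart.

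**Figure D1:**
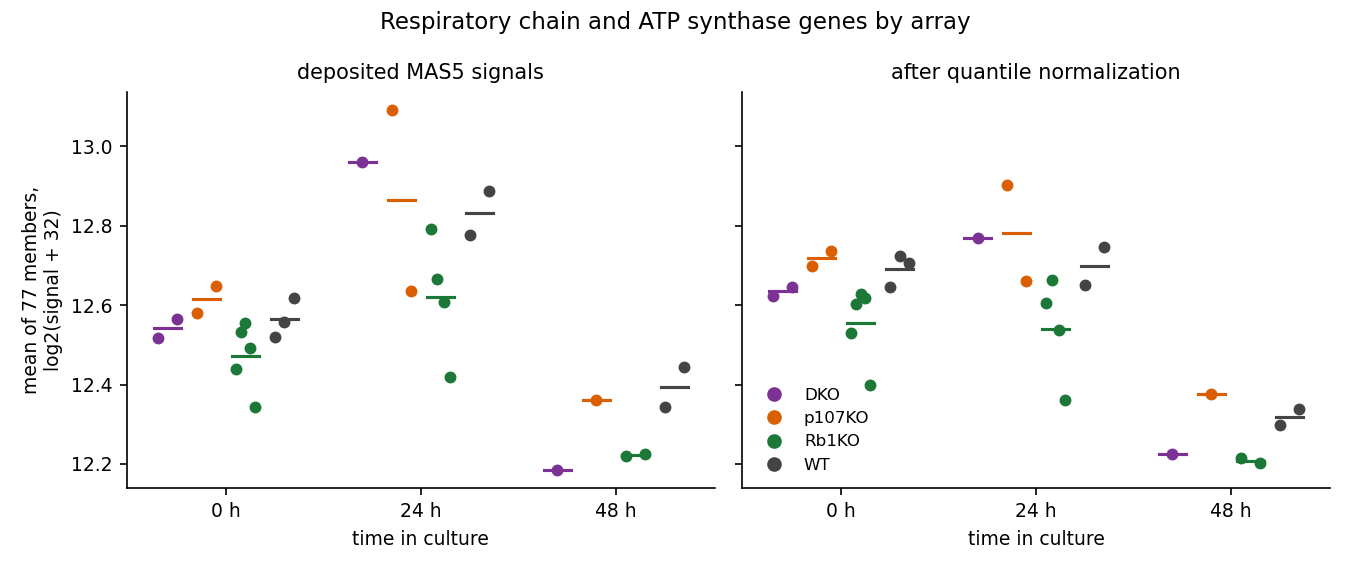
Each point is 1 array's mean over the 77 members on the log2(signal + 32) scale, by time in culture and genotype, from the deposited signals on the left and after quantile normalization on the right, with bars at group means. The 48 h arrays lie between 12.185 and 12.445 as deposited, and 0 h and 24 h arrays overlap more after quantile normalization than before.

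The members' mean per array shows how much single arrays weighed. It was 12.343 to 12.648 on the log2 scale over the 12 arrays at 0 h (median 12.544), 12.419 to 13.092 over the 9 arrays at 24 h (median 12.777) and 12.185 to 12.445 over the 6 arrays at 48 h (median 12.285). The highest 24 h values were those of p107KO replicate 1 (13.092) and DKO replicate 1 (12.960). The other p107KO array at 24 h gave 12.636. Of the 9 arrays at 24 h, 8 lay above the whole 48 h range, the exception being Rb1KO replicate 4 at 12.419.

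Complex II, which is also the succinate dehydrogenase of the TCA cycle, had 1 rise and 2 falls among its 4 genes at 24 h. Sdhd, the membrane anchor of succinate dehydrogenase, had signals of 3419 and 2677 in DKO, 3835 and 3439 in p107KO, 4359, 4022, 3272, 3790 and 2124 in Rb1KO, and 3732, 3914 and 3282 in WT at 0 h. At 24 h it had 1454 in DKO, 1850 and 2830 in p107KO, 1856, 2392, 1539 and 1643 in Rb1KO, and 1860 and 2189 in WT. In DKO, p107KO and WT the 24 h arrays lay below every 0 h array of their own genotype, and in Rb1KO only 0 h replicate 5 overlapped them. Averaged over genotypes Sdhd was 1.81-fold lower, a log2 change of -0.86 ± 0.14 (SE; limma adjusted p = 1.6e-05). The change was -0.86 with quantile normalization and -0.75 without the 4 arrays set apart. At 48 h it had 2647 in DKO, 2464 in p107KO, 2632 and 1577 in Rb1KO, and 2253 and 1685 in WT, and the change from 24 h, 0.27 ± 0.17 (SE), missed the threshold (limma adjusted p = 0.212).

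Sdha, the flavoprotein that oxidizes succinate, ranged from 5064 to 6263 over the 12 arrays at 0 h, from 3338 to 5744 at 24 h and from 3089 to 4781 at 48 h. It fell at both steps, by 0.30 ± 0.09 (SE) at 24 h (limma adjusted p = 0.00509) and by 0.29 ± 0.10 (SE) at 48 h (limma adjusted p = 0.0245). The 48 h arrays all lay below the 0 h arrays. Sdhb, the iron-sulfur subunit, rose by 0.24 ± 0.07 (SE) at 24 h (limma adjusted p = 0.00723), with 5840 to 8344 at 24 h against 5207 to 6597 at 0 h, and fell by 0.29 ± 0.09 (SE) at 48 h. After quantile normalization its 24 h change was 0.05 and did not pass. Sdhc, the other membrane anchor, was at -0.20 ± 0.13 (SE) at 24 h, which did not pass (limma adjusted p = 0.175), and fell by 0.39 ± 0.15 (SE) at 48 h (limma adjusted p = 0.0409). At 48 h 3 of the 4 genes fell.

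**Figure D2:**
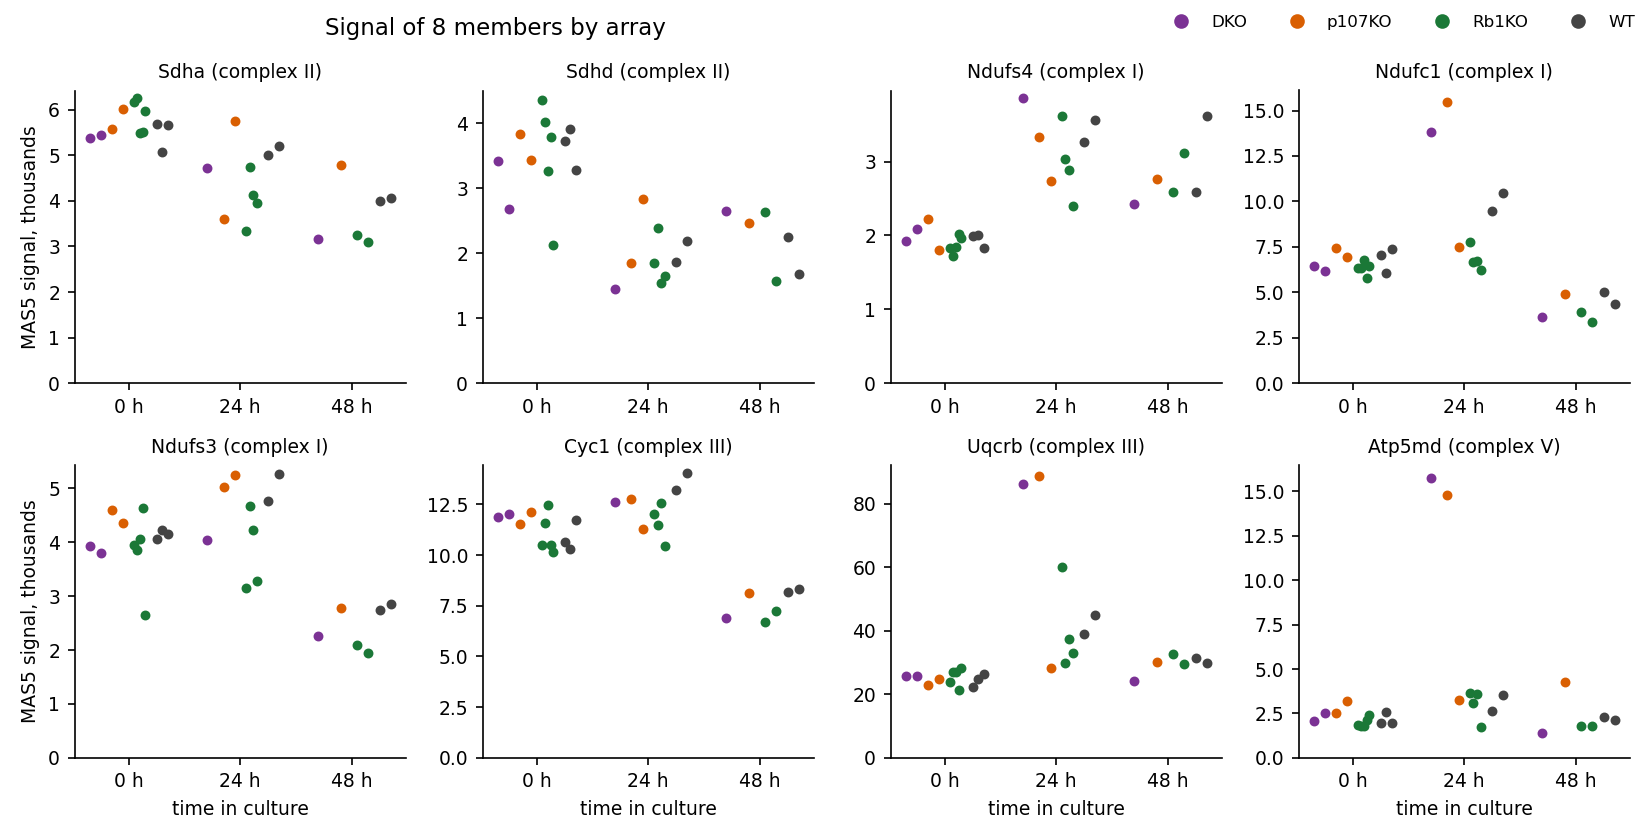
MAS5 signal (in units of 1000) on each array (1 point per array) for 8 members by time in culture, coloured by genotype. Sdhd is lower at 24 h than at 0 h, Ndufs4 is higher, and Uqcrb and Atp5md each have 2 points at 24 h, DKO and p107KO replicate 1, far above the others.

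In complex I, which has the most members, 17 of 34 rose and 1 fell at 24 h (median log2 change 0.24), and 29 fell and 0 rose at 48 h (median -0.52). After quantile normalization the counts were 12 and 3 at 24 h (median 0.04) and 0 and 24 at 48 h (median -0.46). Ndufs4, a small subunit at the NADH-oxidizing arm that is needed for stable assembly, ranged from 1727 to 2226 at 0 h, from 2397 to 3854 at 24 h and from 2429 to 3617 at 48 h. No cultured array overlapped the 0 h arrays. Its rise at 24 h was 0.74 ± 0.09 (SE), 1.67-fold (limma adjusted p = 2.75e-07). It was 0.73 with quantile normalization. Ndufs4 passed in WT (0.80) and Rb1KO (0.65) alone, also without the 4 arrays set apart (0.80 and 0.57). In p107KO it was 0.58 (limma adjusted p = 0.0213), and in DKO, which pools its 24 h and 48 h arrays, 0.60 (limma adjusted p = 0.0158). Without the 4 arrays these were 0.44 and 0.27 and did not pass (limma adjusted p = 0.125 and 0.318). With means over probe sets the rise was 0.39 in WT and 0.30 in p107KO, and neither passed (limma adjusted p = 0.0678 and 0.23). In DKO the change was then 0.43 and did not pass either. At 48 h Ndufs4 differed from 24 h by -0.25 ± 0.11 (SE), which did not pass (limma adjusted p = 0.0645).

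Ndufb5, a subunit of the membrane arm, was the complex I gene that fell at 24 h. It ranged from 3193 to 5113 at 0 h, from 1748 to 3654 at 24 h and from 2283 to 3193 at 48 h. The change was -0.66 ± 0.10 (SE) on the log2 scale (limma adjusted p = 9.27e-06), -0.73 with quantile normalization, and a second, similarly bright probe set also had a negative value in WT (-0.42, against -0.65 for the first). The 24 h and 0 h arrays overlapped only through Rb1KO 0 h replicate 5 and 2 arrays at 24 h.

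The falls between 24 h and 48 h in complex I reached both arms. Ndufc1, a small membrane subunit, had 3667 in DKO, 4908 in p107KO, 3942 and 3369 in Rb1KO, and 5011 and 4354 in WT at 48 h. At 24 h it had 13800 in DKO, 15495 and 7472 in p107KO, 7755, 6645, 6699 and 6224 in Rb1KO, and 9459 and 10478 in WT. The 2 times did not overlap, and Ndufc1 fell by 1.25 ± 0.12 (SE), 2.38-fold (limma adjusted p = 6.8e-08), or by 0.84 without the 4 arrays set apart. Ndufs3, a core iron-sulfur protein subunit, ranged from 1937 to 2851 at 48 h and from 3144 to 5265 at 24 h, without overlap, and fell by 0.86 ± 0.12 (SE, limma adjusted p = 4.05e-06). Ndufs7, a subunit that carries the last iron-sulfur cluster before ubiquinone, ranged from 3257 to 4102 at 48 h and from 5333 to 9025 at 24 h. Ndufv1, the flavoprotein that takes electrons from NADH, ranged from 2958 to 5207 at 48 h and from 5489 to 8672 at 24 h. Both fell, Ndufs7 by 0.84 ± 0.12 (SE) and Ndufv1 by 0.87 ± 0.12 (SE). Ndufb2 (-1.11 ± 0.14 SE), Ndufa5 (-1.19 ± 0.17 SE), Ndufa12 (-0.94 ± 0.12 SE) and Ndufb3 (-0.76 ± 0.10 SE) fell too, all with limma adjusted p below that of Ndufs7 (8.42e-06).

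Some values rested in part on the 24 h arrays set apart. Ndufa5, an accessory subunit, had 9998 in DKO replicate 1 and 9256 in p107KO replicate 1 at 24 h, against 2888 to 4297 on the other 7 arrays of that time. Its rise at 24 h was 0.85 ± 0.14 (SE) over all arrays and 0.36 without the 4 arrays set apart, and its fall at 48 h was -1.19 and -0.59. Both still passed without them. Ndufb11, an X-linked accessory subunit, had 29890 in DKO, 17260 in p107KO replicate 1 and 27920 in Rb1KO replicate 1, against 9358 to 15334 on the other 24 h arrays. Its rise was 0.85 ± 0.14 (SE) and 0.41 without the 4 arrays, and its fall at 48 h (-0.47 ± 0.16 SE) was 0.02 and did not pass without them.

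In complex III, 4 of 9 members rose and 1 fell at 24 h (median 0.13), and 6 fell at 48 h (median -0.49). With quantile normalization 2 rose and 4 fell at 24 h (median -0.19), so the direction of the median depended on the scaling. Cyc1, which encodes cytochrome c1, ranged from 6683 to 8346 at 48 h and from 10437 to 14070 at 24 h, with no overlap. It fell by 0.72 ± 0.08 (SE), 1.65-fold (limma adjusted p = 4.38e-07), and by 0.64 without the 4 arrays set apart. Uqcr11, a small accessory subunit, fell by 0.82 ± 0.15 (SE) at 48 h, and Uqcrfs1, the Rieske iron-sulfur protein, fell at 24 h (-0.27 ± 0.12 SE, limma adjusted p = 0.0488) and again at 48 h (-0.49 ± 0.14 SE). The Uqcrfs1 call at 24 h was lost without the 4 arrays (-0.15, limma adjusted p = 0.193).

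Uqcrb, a ubiquinone-binding subunit, was the member of complex III that moved most at 24 h. Its 24 h signals were 86193 in DKO, 88774 and 28249 in p107KO, 60029, 29836, 37512 and 32899 in Rb1KO, and 39055 and 44929 in WT, against 21201 to 28431 over the 0 h arrays. The 3 highest values were those of the 3 arrays set apart. Uqcrb rose by 1.05 ± 0.16 (SE) over all arrays (limma adjusted p = 7.89e-06) and by 0.48 without the 4 arrays. At 48 h, with 24283 to 32660, it fell by 0.83 ± 0.19 (SE), but the fall was -0.16 and did not pass without the 4 arrays (limma adjusted p = 0.172).

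In complex IV, cytochrome c oxidase, 9 of 13 members rose and 1 fell at 24 h (median 0.53), and 7 fell at 48 h (median -0.50). After quantile normalization 3 rose and 2 fell at 24 h (median 0.10), and 6 fell at 48 h (median -0.30). Cox5b, a structural subunit, had 28473 in DKO, 31936 and 18256 in p107KO, 39465, 19816, 25757 and 21410 in Rb1KO, and 25905 and 29515 in WT at 24 h. At 0 h it ranged from 15253 to 19616, which overlapped only p107KO replicate 2. It rose by 0.62 ± 0.12 (SE, limma adjusted p = 0.000158) and fell by 0.62 ± 0.15 (SE) at 48 h. With quantile normalization the rise was 0.18 and still passed. Cox7a2l, which takes part in joining complexes III and IV into supercomplexes, was higher at both cultured times, with 2442 to 3037 at 0 h, 2981 to 4444 at 24 h and 3474 to 4886 at 48 h. It rose by 0.39 ± 0.08 (SE) at 24 h (limma adjusted p = 0.000138) and by 0.35 with quantile normalization, and it was one of the 3 members with a positive value at 48 h (0.15 ± 0.09 SE, which did not pass).

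Several complex IV subunits have tissue forms. Of the brightest probe sets, those of the widely expressed forms Cox4i1, Cox6a1, Cox6b1, Cox7a2 and Cox8a lay above the filter, and those of Cox4i2 (lung form), Cox7a1 and Cox8b (heart and muscle forms) and Cox7b2 lay below it, with mean signals of 71.7, 86.6, 27.6 and 14.4. A dim probe set does not show that a form is absent. The muscle form Cox6a2 passed the filter with 19.7 to 363 over all arrays, and Cox8c with 52 to 369, and neither passed the test at either step. Cox6b2, known as the testis form, ranged from 3561 to 7399 at 24 h and from 1830 to 3694 at 0 h, and rose by 0.68 ± 0.15 (SE, limma adjusted p = 0.000393; 0.58 with quantile normalization). Its 48 h arrays spread from 2260 in p107KO to 8327 in WT replicate 2. Cox7c, the 1 complex IV member called lower at 24 h, had 281 to 570 at 0 h, 5.7 to 206 at 24 h and 5 to 95.8 at 48 h. It passed the filter on low signal through its 0 h arrays, so its falls are kept in the counts and no test of it is read. Below the filter among the genes placed in complex I by symbol were Ndufa4l2 (mean 71.8) and Ndufb4 (33.5). Ndufa4l2 is the form induced by low oxygen, and the 1 probe set of Ndufb4 was dim.

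In complex V, 13 of 17 members rose and 1 fell at 24 h (median 0.47), and 16 fell at 48 h (median -0.51). With quantile normalization 6 rose and 3 fell at 24 h (median 0.07), and 12 fell at 48 h (median -0.40). Atp5o, the subunit that ties the catalytic head to the stalk, ranged from 4430 to 5331 at 48 h and from 7014 to 10504 at 24 h, with no overlap. It fell by 0.82 ± 0.08 (SE), 1.77-fold (limma adjusted p = 1.17e-07), and by 0.67 without the 4 arrays set apart. Atp5k, the subunit e of the membrane part, fell by 0.95 ± 0.14 (SE) at 48 h. Atp5b, the catalytic beta subunit, was at 0.47 at 24 h as deposited and at -0.01 after quantile normalization, so its direction there depended on the scaling. Atp5md, a small accessory subunit, had 15764 in DKO and 14777 in p107KO replicate 1 at 24 h, against 1756 to 3672 on the other 7 arrays of that time and 1773 to 3186 at 0 h. Its rise of 1.27 ± 0.20 (SE, limma adjusted p = 9.55e-06) was 0.40 without the 4 arrays, and its fall at 48 h (-1.33 ± 0.24 SE) was -0.22 and did not pass.

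Subunit c, which forms the rotating ring of ATP synthase, is made from 3 genes. Atp5g1 did not pass at 24 h (0.03 ± 0.09 SE, limma adjusted p = 0.765) and fell by 0.67 ± 0.10 (SE) at 48 h, with 2114 to 4017 at 48 h and 3310 to 6110 at 24 h. Atp5g3 rose at 24 h (0.22 ± 0.09 SE, limma adjusted p = 0.0324) and fell by 0.51 ± 0.10 (SE) at 48 h, but with quantile normalization it fell at 24 h (-0.23). Atp5g2 fell at 24 h (-0.27 ± 0.11 SE, limma adjusted p = 0.039; -0.39 with quantile normalization) and was at -0.01 ± 0.13 (SE) at 48 h. Their differences from one another were not tested.

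**Figure D3:**
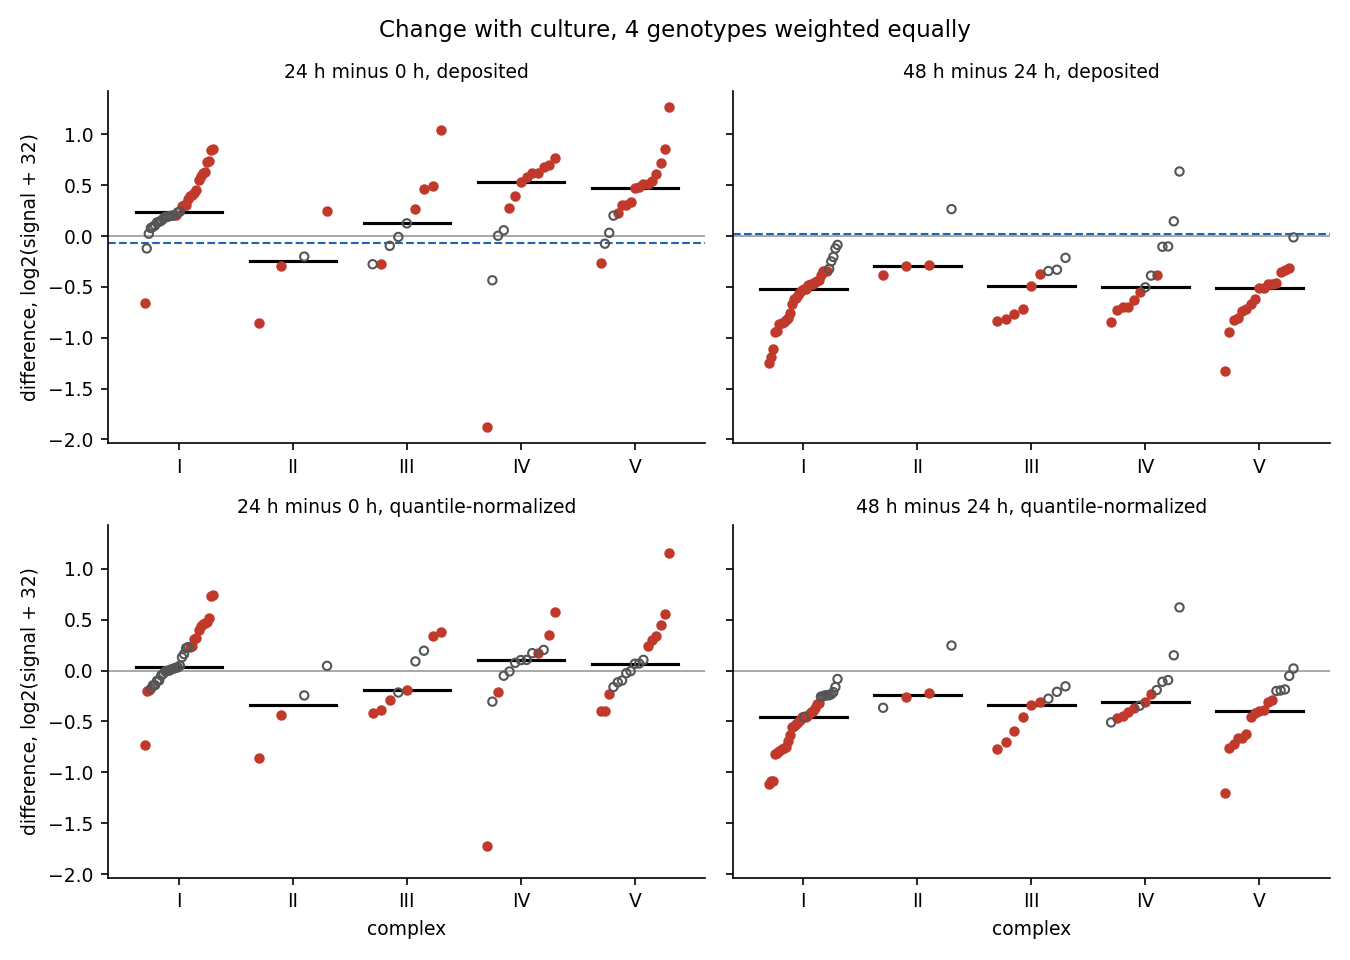
Differences on the log2(signal + 32) scale for each of the 77 members (1 point per gene, sorted within each complex), 24 h minus 0 h on the left and 48 h minus 24 h on the right, as deposited above and quantile-normalized below. Filled points passed limma's adjusted p of 0.05, black bars are medians and the blue dashed line is the median of all genes as deposited. The medians of complexes I, IV and V at 24 h move toward 0 after quantile normalization. At 48 h the quantile-normalized medians of all the complexes lie between -0.24 and -0.46.

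The 1092 brightest of the genes tested had a median log2 change of 0.35 at 24 h and of -0.25 at 48 h, beside 0.30 and -0.51 for the members. Of 7 red cell markers with a probe set, the alpha-globin gene Hba-a1 lay below the filter (at most 124 on any array). A dim probe set does not show that alpha-globin is absent, and this one adds little to the summed signal below. The other 6 all rose at 24 h (median 0.58) and 4 fell at 48 h (median -0.48), among them Tfrc, the transferrin receptor, at 1.03 and -0.86 and Klf1, a red cell transcription factor, at -1.10 at 48 h. The summed signal of the red cell list was 106144 to 137721 at 0 h, 142749 to 280727 at 24 h and 107538 to 173346 at 48 h. All 8 megakaryocyte markers rose at 48 h (median 1.77), with sums of 45568 to 73426 at 48 h and 11833 to 25839 at 24 h. Of 8 neutrophil markers 7 rose at 24 h and 6 at 48 h, and of 10 macrophage markers 7 rose at 48 h. At 24 h 6 macrophage markers fell and 1 rose (median -3.07), 6 megakaryocyte markers fell and 1 rose (median -0.60), and all 7 endothelial (median -2.04) and all 7 stromal markers (median -3.77) fell. The part of brightness and of these cell types in the members' change was not tested.

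Within single genotypes the 48 h fall kept its direction and the counts were smaller. In WT, 27 members fell and 0 rose from 24 h to 48 h (median -0.45), where 12.1% of all genes fell and 13.4% rose, and with quantile normalization 29 fell. In Rb1KO, 24 fell and 0 rose (median -0.42), where 7.56% of all genes fell and 13.5% rose, and with quantile normalization 23 fell. Ndufv1 (-1.20 ± 0.21 SE), Ndufs7 (-1.13 ± 0.21 SE) and Ndufc1 (-1.09 ± 0.22 SE) had the largest falls in WT. The WT count was 10 without WT 24 h replicate 2, 14 and 17 without WT 48 h replicate 1 or 2, and 45 without the 4 arrays set apart. The Rb1KO count was 7 and 14 without Rb1KO 48 h replicate 1 or 2. p107KO and DKO had 1 array at 48 h.

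In the first 24 h the split depended on the scaling in single genotypes too. In WT 19 members rose and 3 fell (median 0.33), where 15.3% of all genes rose and 22.8% fell, and with quantile normalization 5 rose and 4 fell (median 0.02). The 3 that fell were Ndufb5 and Sdhd, which also fell with quantile normalization, and Cox7c, which passed the filter through its 0 h arrays. The WT count of 22 was 13 and 12 without WT 0 h replicate 1 or 2, and 11 and 6 without WT 24 h replicate 1 or 2. In Rb1KO 25 rose and 6 fell (median 0.22), where 20.7% of all genes rose and 31.5% fell, and with quantile normalization 7 rose and 13 fell. Among its falls were Sdha (-0.55 ± 0.12 SE), Uqcrc2, a core protein of complex III (-0.45 ± 0.11 SE), and Ndufs1, the largest iron-sulfur subunit of complex I (-0.31). In p107KO 12 rose and 0 fell, where 11.8% of all genes rose and 17.5% fell. The number called in either direction was 0 without p107KO 24 h replicate 1, 33 without p107KO 24 h replicate 2, and 3 and 5 without p107KO 0 h replicate 1 or 2. Without the 4 arrays set apart 0 of the 12 rises were kept. Of the 1092 brightest genes tested, 490 rose and 99 fell in WT, 539 and 159 in Rb1KO, and 307 and 103 in p107KO.

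In DKO the cultured arrays (1 at 24 h and 1 at 48 h) were set against 2 arrays at 0 h. Of the members 4 rose and 4 fell (median 0.09), where 14.1% of all genes rose and 19% fell. Of the 1092 brightest genes tested, 251 rose and 120 fell. Among the members the calls were as follows. Ndufs4, Ndufb11, Ndufb3 and Atp5pb rose, and Sdha, Ndufb5 and Ndufa9 fell. The other fall was that of Cox7c, which passed the filter through its 0 h arrays, so its test is not read. With quantile normalization 3 rose and 12 fell. Without DKO 24 h replicate 1, 0 rose and 13 fell, and without DKO 48 h replicate 1, 25 rose and 2 fell. The members' median was -0.37 in the first case, which leaves only the 48 h array, and 0.41 in the second. The number called was 1 and 4 without DKO 0 h replicate 1 or 2, 5 without WT 0 h replicate 1 and 15 without either p107KO 24 h array, since all groups share the estimate of spread.

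**Figure D4:**
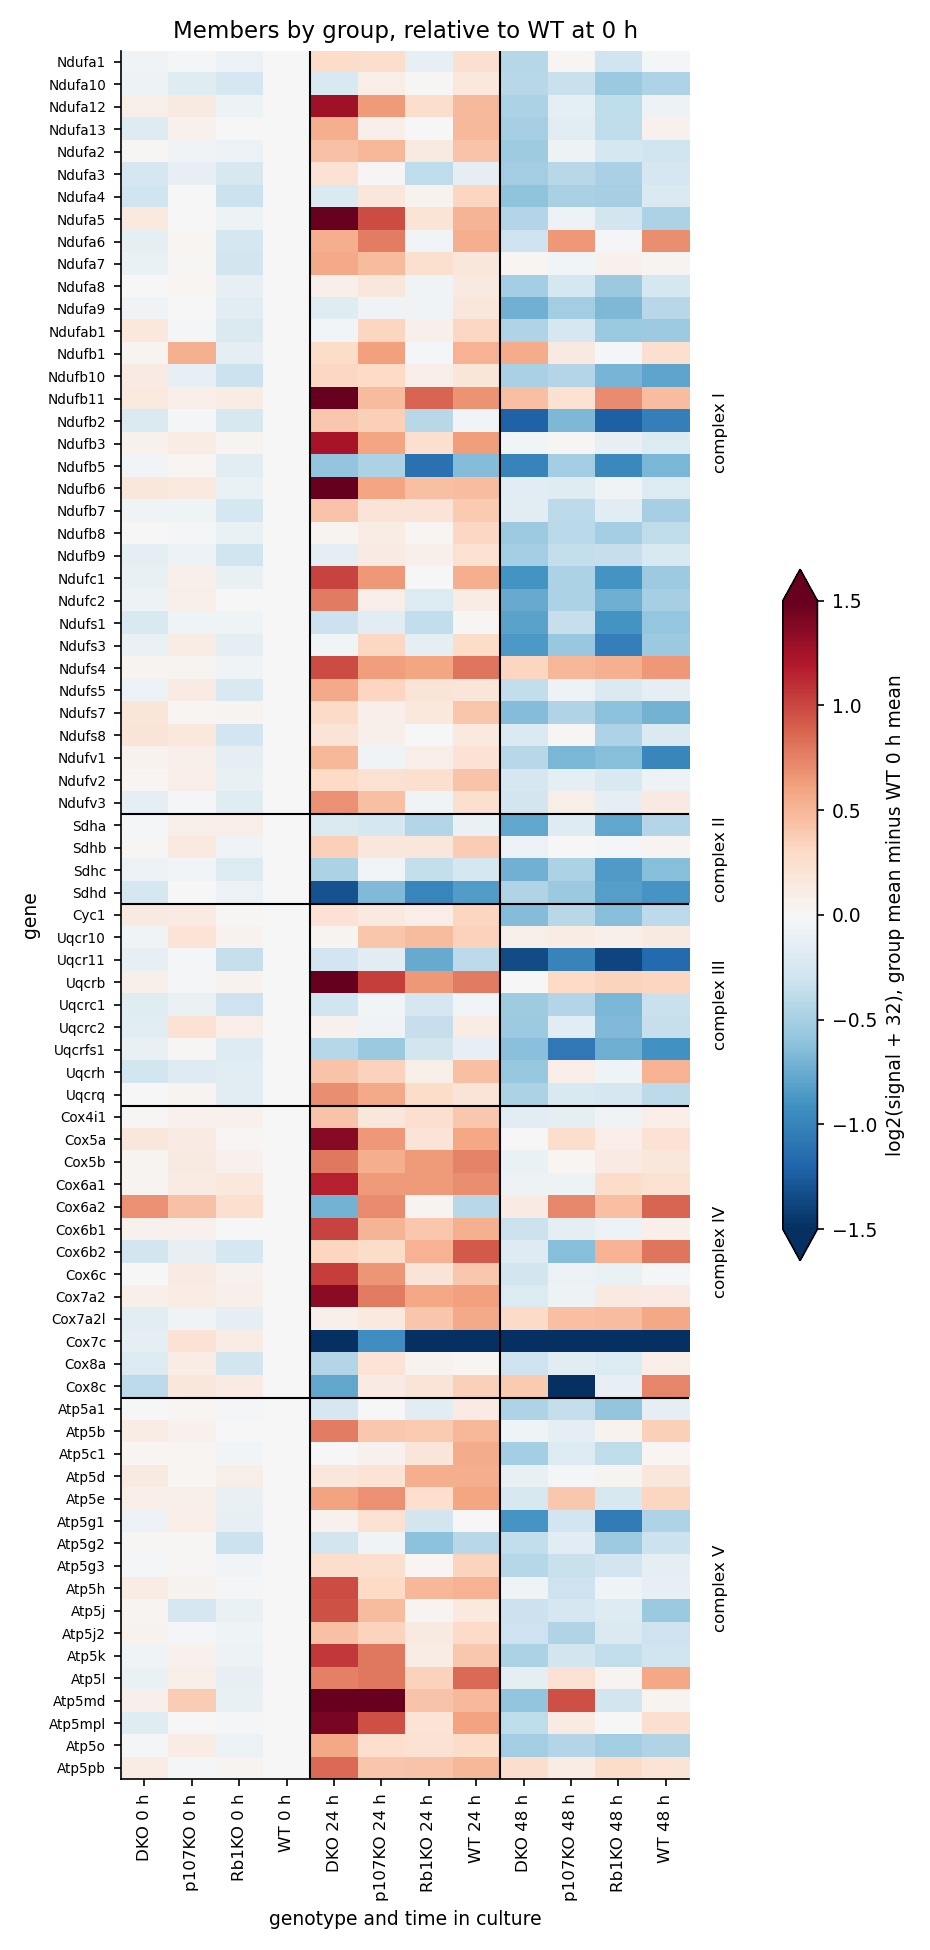
Group means of each tested member on the log2(signal + 32) scale minus the mean of WT at 0 h, by genotype and time (columns) and complex (rows), with the colour scale ending at -1.5 and 1.5. Most rows are above WT at 0 h at 24 h and below it at 48 h in every genotype, while Sdhd and Ndufb5 lie below it at both cultured times in all genotypes.

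Averaged over the 3 times, 9 members were lower in Rb1KO than in WT and 0 were higher (11 and 7 arrays), where 8.66% of all genes were lower and 10.4% higher. The median over the 77 members was -0.16, and over all genes it was -0.07. The share of members called lower (9 of 77) is near that background. The 9 genes were Ndufa6, Ndufb5, Ndufc1 and Ndufs3 of complex I, Uqcrh of complex III, and Atp5a1, Atp5e, Atp5g1 and Atp5l of complex V. None of complexes II and IV passed.

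Ndufa6, an accessory subunit of complex I, had the largest difference of the 9. At 0 h it had 2622, 3238, 3256, 3724 and 2786 in Rb1KO, against 3515, 3855 and 3819 in WT. At 24 h it had 4155, 4101, 3590 and 2839 in Rb1KO, against 5356 and 5563 in WT. At 48 h it had 3686 and 3600 in Rb1KO, against 5888 and 6269 in WT. The genotypes overlapped at 0 h only, through 1 Rb1KO array. The difference was -0.53 ± 0.11 (SE), 1.44-fold lower in Rb1KO (limma adjusted p = 0.00173). It was -0.73 ± 0.22 (SE) at 48 h alone (limma adjusted p = 0.0356). Among cells that all lack p107, Ndufa6 had 3348 and 3380 at 0 h, 5455 at 24 h and 2993 at 48 h in DKO, against 3974 and 3632, 8799 and 4617, and 5869 in p107KO (log2 difference -0.45 ± 0.16 SE, not past the threshold at a limma adjusted p of 0.0911).

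Atp5g1, of subunit c, had 2610 and 2114 in Rb1KO at 48 h, against 3790 and 3358 in WT, and was lower over the 3 times by a log2 difference of -0.33 ± 0.09 (SE, limma adjusted p = 0.0135). At 48 h alone the difference was -0.60 ± 0.18 (SE, limma adjusted p = 0.0347), and the arrays did not overlap. With means over probe sets neither Atp5g1 call was kept. The differences were then -0.21 over all times (limma adjusted p = 0.208) and -0.58 at 48 h (limma adjusted p = 0.102). Uqcrh, the hinge protein of complex III, had 10597 and 7868 in Rb1KO at 48 h, against 12061 and 15497 in WT (all times -0.37 ± 0.12 SE, limma adjusted p = 0.0372). Atp5l, subunit g of ATP synthase, had 14590, 9166, 7336 and 6929 in Rb1KO at 24 h, against 12451 and 13385 in WT. Here Rb1KO replicate 1, one of the arrays set apart, was above both WT arrays and the other 3 were below. Over all times Atp5l differed by -0.39 ± 0.14 (SE, limma adjusted p = 0.0482). With means over probe sets that call was also lost (limma adjusted p = 0.0557). Ndufc1 had 7755, 6645, 6699 and 6224 in Rb1KO at 24 h, below both WT arrays at 9459 and 10478 (all times -0.34 ± 0.11 SE, limma adjusted p = 0.032).

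At 24 h alone 1 member was lower in Rb1KO than in WT and 0 were higher, where 3.56% of all genes were lower and 4.2% higher. It was Uqcrc2, with 5250, 5862, 5113 and 5160 in Rb1KO against 6720 and 8068 in WT (log2 -0.46 ± 0.14 SE, limma adjusted p = 0.0466). That count of 1 was 0, 2, 3 or 4 when any of 15 single arrays was left out, and it was 4 without Rb1KO 24 h replicate 1. The Uqcrc2 call was lost with quantile normalization (-0.39, limma adjusted p = 0.0897), where Ndufc1 was the 1 call (-0.50, limma adjusted p = 0.0408). It was also lost with means over probe sets (-0.39, limma adjusted p = 0.0824), where Ndufb5 was the 1 call (-0.49, limma adjusted p = 0.0336), and with array weights, a replicate block, no filter, only the groups compared, or the 9 arrays that gave Y-linked signal left out (limma adjusted p of 0.0634 to 0.178). At 48 h 2 members, Ndufa6 and Atp5g1, were lower and 0 higher, where 2.93% of all genes were lower and 7.48% higher. That count was 1 without WT 48 h replicate 1 and 0 without WT 48 h replicate 2 or Rb1KO 48 h replicate 2. At 0 h 0 members passed in limma (1 at an unadjusted p under 0.05), where 0.0733% of all genes were lower and 0.54% higher. The members' median difference was -0.09 for 0 h, -0.21 for 24 h and -0.16 for 48 h, beside -0.04, -0.07 and -0.09 over all genes. Whether the Rb1KO difference changed with culture was tested as an interaction, and 0 members passed in limma from 0 h to 24 h or from 24 h to 48 h (3 and 0 at an unadjusted p under 0.05), where 0.834% and 0.0458% of all genes did.

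**Figure D5:**
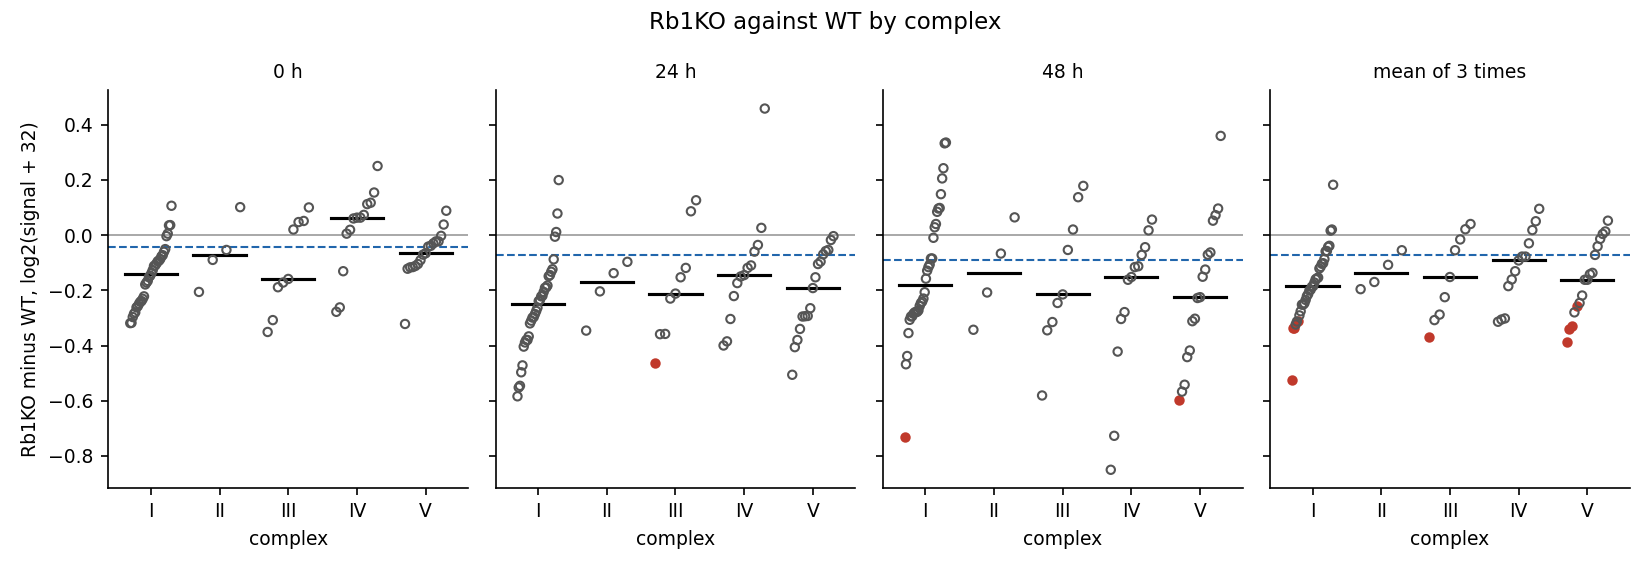
Rb1KO minus WT on the log2(signal + 32) scale for each tested member by complex, at each time and averaged over the times. Filled points passed limma's adjusted p of 0.05, black bars are medians and the blue dashed line is the median of all genes. Few points are filled, and the 24 h medians of all 5 complexes lie below the line of all genes.

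The Rb1KO count rested on single arrays and on the choice of arrays. It was 24 without the 4 arrays set apart, and at 24 h it was then 14 in place of 1. Without the 9 arrays with Y-linked signal it was 1. Leaving out single Rb1KO arrays gave 2 (48 h replicate 2) and 3 (24 h replicate 4). Leaving out single WT arrays gave 1 (24 h replicate 2), 3 (48 h replicate 2), 4 (0 h replicate 1 or 3) and 5 (48 h replicate 1). Of 8 megakaryocyte markers, 6 were also lower in Rb1KO than in WT (median -0.53), with Plek at -0.67 and Itgb3 at -0.64. Their summed signal ran from 11833 to 18588 in Rb1KO at 24 h against 15806 and 25839 in WT. Fgb, 1 of 9 hepatocyte markers (-0.80, limma adjusted p = 0.0235), and Vcam1, 1 of 10 macrophage markers (-0.61, limma adjusted p = 0.00679), were lower too. None of the red cell, neutrophil, endothelial, stromal, or mast cell and basophil markers passed. The smallest limma adjusted p of a red cell marker was 0.398, for Klf1 (0.15). At 48 h the hepatocyte median was -1.40 in Rb1KO against WT, with 1 of 9 past the threshold. Their part in the members' difference was not tested.

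In the remaining genotype comparisons 0 members passed in limma, and 4, 4 and 8 had an unadjusted p under 0.05 in DKO against p107KO, p107KO against WT and DKO against Rb1KO. DKO differed from p107KO in 7.13% of all genes, with a members' median of -0.05. p107KO differed from WT in 0.0183% of all genes (2 genes), with a members' median of 0.03. DKO differed from Rb1KO in 0.999% of all genes, with a members' median of 0.12. The smallest adjusted p of a member was 0.0911 for Ndufa6 in DKO against p107KO, 0.27 for Cox6b2 in p107KO against WT and 0.0865 for Ndufb3 in DKO against Rb1KO. Array weights, which give less weight to arrays far from their group, called 3 members in DKO against p107KO and 8 in DKO against Rb1KO. Leaving out p107KO 24 h replicate 1 gave 2 calls in each of these. Leaving out p107KO 24 h replicate 2 gave 1 call in DKO against p107KO, 1 in p107KO against WT and 2 in DKO against Rb1KO. The last comparison had 5 without DKO 48 h replicate 1 and 1 without Rb1KO 0 h replicate 5, and DKO against p107KO had 1 without Rb1KO 24 h replicate 1.

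Other genes of the same pathway were counted in lists beside the subunits. Their counts stand beside 35.7% of all genes lower and 26.7% higher at 24 h, and 19.5% lower and 23.8% higher at 48 h. Of 12 tested regulators of respiratory genes 8 fell and 1 rose at 24 h (median log2 change -0.47). Among the falls were the mitochondrial RNA polymerase Polrmt (-1.17 ± 0.14 SE), the coactivators Pprc1 (-1.06 ± 0.11 SE) and Ppargc1b (-1.16 ± 0.16 SE) and the mitochondrial DNA-packaging factor Tfam (-0.80 ± 0.10 SE). At 48 h 1 regulator fell, Nrf1 (-0.46 ± 0.14 SE), and 1 rose, the mitochondrial transcription factor Tfb2m (0.83 ± 0.14 SE). Of 16 genes of the TCA cycle and pyruvate dehydrogenase, 8 fell and 3 rose at 24 h (median -0.23). Suclg2, a subunit of succinyl-CoA synthetase (-1.19 ± 0.11 SE), and Idh2, mitochondrial isocitrate dehydrogenase (-1.09 ± 0.11 SE), were among the falls.

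At 48 h the TCA list had 8 falls and 1 rise, with citrate synthase Cs at -0.77 ± 0.10 (SE) and malate dehydrogenase Mdh2 at -0.86 ± 0.11 (SE). Complex I assembly factors had 4 falls and 1 rise of 15 at 24 h, and 8 falls and 0 rises at 48 h, with Ndufaf7 at -0.67 and Ndufaf1 at -0.50. Complex IV assembly factors had 6 falls and 5 rises of 19 at 24 h, and 8 falls and 0 rises at 48 h. The shares of falls at 24 h in these 2 lists lie below that of all genes. Of these Cmc2, a copper chaperone family member, was at 1.16 ± 0.13 (SE) and then -1.09 ± 0.16 (SE), and Cox17, which delivers copper, was at -0.999 ± 0.131 (SE) at 48 h. Of 13 electron carriers and ubiquinone synthesis genes 5 rose and 3 fell at 24 h and 7 fell at 48 h. Among them Cycs, which encodes cytochrome c, rose by 0.85 ± 0.14 (SE) at 24 h and fell by 0.78 ± 0.17 (SE) at 48 h. Among 13 assembly factors of complexes II, III and V 2 rose and 7 fell at 24 h, and 2 fell at 48 h. Of 15 membrane carriers, porins and import genes 2 rose and 7 fell at 24 h, with Tomm40, the import pore, at -1.31 ± 0.16 (SE), and 6 fell at 48 h.

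In Rb1KO against WT over the 3 times, where 8.66% of all genes were lower and 10.4% higher, 7 of the 16 TCA genes were lower and 0 higher (median -0.18), led by Suclg1 (-0.35 ± 0.08 SE, limma adjusted p = 0.00262) and Suclg2 (-0.44 ± 0.12 SE). Each of the 3 lists of assembly factors had 2 or 3 genes lower, among them Ndufaf4 (-0.50 ± 0.15 SE), Coa5 (-0.39 ± 0.10 SE) and Uqcc2 (-0.36 ± 0.09 SE), while Cmc2 was higher (0.50 ± 0.14 SE). For complex IV factors, with 2 of 19 lower, the share is near that of all genes. Of the electron carriers Etfb and Coq9 were lower. The adenine nucleotide carriers Slc25a4 (-0.45 ± 0.12 SE) and Slc25a5 (-0.25 ± 0.08 SE) and the porin Vdac2 (-0.28 ± 0.09 SE) were the 3 of 15 carrier and import genes that were lower. Among the regulators Myc was lower (-0.38 ± 0.13 SE) and Yy1 higher (0.44 ± 0.09 SE). These are single genes in opposite directions and do not show a shift of that list.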

How the data were processed

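RNA was measured on 27 Affymetrix arrays, 1 per sample. The deposited values are MAS5 intensity signals per probe set on a linear scale, computed with GCOS 1.4 per the submitters' processing notes. Trimmed means (2% off each end) lay between 491.8 and 498.0, so the arrays carry a common scaling, while array medians ran from 81.0 to 119.3. The precision is limited by the number of arrays.

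Of 45037 probe sets, 34945 had 1 gene symbol in the platform annotation, 932 had several and 9160 none. The brightest probe set (by mean signal) stood for each of 18193 genes. The dimmest 40% of genes (mean under 99.4) were left out. Another 8 gene names that meet the rule occur only on probe sets shared with other genes (10 probe sets) and were not analysed. Levels of different probe sets were not compared.

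One limma model (3.58.1, R 4.3.3, moderated variance with a trend) was fitted to log2(signal + 32) of 10916 genes in all 12 groups, with 15 residual degrees of freedom. The 3 groups of 1 array add none and are assumed to vary like the others. P-values were adjusted over all genes tested (Benjamini-Hochberg) with a threshold of 0.05. The steps were tested on simulated data. Tables and figures used Python 3.11.15, pandas 2.3.3, numpy 2.4.6 and matplotlib 3.10.9.

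Named were, per comparison, up to 12 members per direction by adjusted p, members against their complex, isoform families and up to 4 genes per related list. Members and lists were chosen with earlier results of these data known. Alternatives were other pseudocounts and filters, quantile normalization, means over probe sets, array weights, fewer groups, a replicate block and left-out arrays.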

Additional observations from a re-analysis of the deposited data

Results flagged for a closer look

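In groups of 4 to 5 arrays, each named member's highest and lowest array was compared with the others by Dixon's gap test, 64 tests in all, and 5 values stood apart, on 2 arrays. Chance alone flags about 1 in 20 groups. In Rb1KO at 24 h, Ndufs7 had 9025.2 in replicate 1, against 5332.7 to 5812.4 in the other 3 arrays, and Cox6b1 had 39496.8 in replicate 1, against 24828.5 to 26113.1. In Rb1KO at 0 h, replicate 5 was low for Cox6b2 (1830.1, others 3010.3 to 3494.3), Atp5a1 (10806.7, others 13262.2 to 14361.6) and Atp5l (5341.9, others 6801.5 to 7079.1). Both arrays are among the 4 set apart. Those 4 were set apart from these same data, so the flags are not separate support for that choice.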

How the results depend on the processing

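Counts are members called in either direction. Quantile normalization gave 9 in WT at 24 h, 20 in Rb1KO at 24 h and 15 in cultured DKO. Without the 4 arrays set apart the counts were 39 in WT and 1 in p107KO at 24 h, 45 in WT at 48 h, 24 in cultured DKO, 24, 14 and 6 in Rb1KO against WT over all times, at 24 h and at 48 h, 2 in DKO against p107KO and 1 in the interaction at 24 h. Both together, chosen after seeing the data, gave 29 over all genotypes and 1 in p107KO at 24 h, 32 in cultured DKO, 15, 5 and 4 in Rb1KO against WT, and 4 in DKO against p107KO. Without the 9 arrays with Y-linked signal there were 25 at 24 h and 36 at 48 h over the genotypes left, 8 in Rb1KO at 48 h, 0 in p107KO at 24 h, and 1, 0 and 0 in Rb1KO against WT. This could not be run where DKO is compared. Array weights gave 39 in WT at 24 h, 33 in cultured DKO, 4 in Rb1KO against WT at 24 h, 3 in DKO against p107KO and 8 in DKO against Rb1KO. Fitting only the groups compared gave 46 in WT, 1 in p107KO at 24 h, 9 in Rb1KO at 48 h, 49 in cultured DKO and 0 in Rb1KO against WT at 24 h and 48 h. No filter gave 5 in cultured DKO and 4, 0 and 0 in Rb1KO against WT, and a 60% filter 14 there over all times. Means over probe sets gave 13 in cultured DKO and 1 in Rb1KO against WT at 48 h. The causes were not tested.

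With the replicate block, Rb1KO against WT had 5 calls over all times and 0 at 24 h. Of 76 same-numbered pairs 19 had a correlation of deviations over 0.1 (median 0.026, range -0.163 to 0.425), against 22 of 175 pairs with different numbers (median -0.017). The labels tie no numbers together, so the numbers were not taken as pairing. Same-numbered pairs exceeded 0.1 more often than the others, and whether such arrays were handled together was not tested.

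Leaving out 1 array at a time gave, over all genotypes, 43 to 52 calls at 24 h and 55 to 65 at 48 h. At 24 h the range was 6 to 32 in WT, 21 to 35 in Rb1KO and 0 to 33 in p107KO, and at 48 h it was 10 to 32 in WT and 7 to 31 in Rb1KO. It was 1 to 27 in cultured DKO. Rb1KO against WT gave 1 to 13 over all times, 0 to 0 at 0 h, 0 to 4 at 24 h and 0 to 2 at 48 h. DKO against p107KO gave 0 to 2, p107KO against WT 0 to 1 and DKO against Rb1KO 0 to 5.

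Over all genotypes at 24 h, rises that turned with quantile normalization were Atp5g3 (-0.228) and Cox4i1 (-0.208), both then called lower, and Atp5b (-0.005), Cox6a1 (-0.008), Atp5d (-0.025), Atp5j2 (-0.115) and Ndufb9 (-0.099), which were not. With that and without the 4 arrays Atp5g3 (-0.189), Cox4i1 (-0.169) and Cox6a1 (-0.143) were called lower, and Atp5k (-0.046), Cox7a2 (-0.050), Atp5h (-0.010), Cox6c (-0.181), Atp5j2 (-0.145), Ndufa13 (-0.140) and Ndufb9 (-0.053) turned without a call. Atp5j2 was called lower with means over probe sets (-0.315). At 48 h Ndufv3 turned with both (0.025) and with the 9 arrays that gave Y-linked signal left out (0.011), and Ndufb11 without the 4 arrays (0.019) and with both (0.033). In single genotypes directions turned for Atp5pb (-0.003) and Atp5b (-0.002) in WT at 24 h with quantile normalization, with and without the 4 arrays, and Atp5c1 there with means over probe sets (-0.277). In p107KO at 24 h Atp5k (-0.057) and Ndufc1 (-0.051) turned with both together. In cultured DKO Ndufb3 turned to -0.105 without the 4 arrays or without DKO 24 h replicate 1, and to -0.156 with both together, and without DKO 48 h replicate 1 it was 1.175.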
